A study of Mus musculus with 10 samples.

Results

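The genes described here encode the nuclear subunits of the mitochondrial respiratory chain and of ATP synthase, measured in sorted mouse renin cells. Members were matched by gene symbol, not by their measured values. Of the 32648 genes in the deposited table, 85 matched: 36 of complex I, 4 of complex II, 9 of complex III, 19 of complex IV, 15 of complex V, and 2 that carry an Atp5 symbol by name only. The last 2, Atp5s and Atp5sl, are listed by RefSeq as Dmac2l and Dmac2 and are kept apart below. Ndufa4 carries a complex I symbol, but its protein is now placed with complex IV, and it is counted there. A further 6 pseudogene symbols containing -ps were dropped.

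The respiratory chain passes electrons from NADH (complex I) and succinate (complex II) through complex III to oxygen at complex IV, and complexes I, III and IV pump protons whose return through complex V makes ATP. Complexes I, III, IV and V are built from nuclear and mitochondrially encoded subunits together, whereas complex II is encoded in the nucleus alone. Several subunits of complexes IV and V exist as isoforms, some of them found mainly in heart and skeletal muscle. Renin cells, which lie in the wall of the afferent arteriole at the glomerulus, secrete renin when the pressure reaching the kidney falls.

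The cells came from Ren1c-YFP mice on the C57BL/6 background, 8 to 12 weeks old, whose reporter, named for the Ren1c gene, puts yellow fluorescent protein in renin cells. In coarctation mice the aorta was narrowed where it passes between the right and left renal arteries, and in sham mice the operation left the aorta unexposed and open. After 72 h, living (DAPI-negative) YFP-positive cells of the cortex were sorted, 1000 from each kidney, and the SMART-Seq v4 kit turned their RNA into cDNA. The 10 libraries form 4 groups: the right and the left kidneys of 3 coarctation mice, and the right and the left kidneys of 2 sham mice. All groups carry the reporter, the labels give no pressures, and the number of mice limits every comparison below.

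Libraries held 20029817 to 32006229 estimated counts. Ren1, the defining transcript of these cells, was at 5451, 11982 and 10836 TPM (abundance per length, as a share of each library) in coarctation right kidneys, at 29285, 48620 and 36877 TPM in coarctation left kidneys, at 21776 and 48591 TPM in sham right kidneys, and at 30521 and 43896 TPM in sham left kidneys. The label of renin cells thus held in every library, with the least renin message in the right kidneys of coarctation mice. Other kidney cells were also represented. The summed TPM of 10 proximal tubule markers ran from 1038 to 10732 across libraries, that of 6 intercalated cell markers from 10.4 to 727, and that of 8 leukocyte markers from 74.5 to 1111. In such material fewer cells of a type and less RNA per cell cannot be told apart.

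Respiratory chain subunits were among the more abundant messages of the sorted cells. Of the 85 genes, 71 exceeded 100 TPM in every library and 42 exceeded 1000 TPM in every library, whereas 4 stayed under 10 TPM throughout. The exceptions were Cox6a2, Cox7b2, Cox8b and Cox8c, which are tissue-restricted isoforms of complex IV. Together the members summed to 160493, 129577 and 124901 TPM in coarctation right kidneys, 148243, 124147 and 123748 TPM in coarctation left kidneys, 151772 and 113264 TPM in sham right kidneys, and 154771 and 117902 TPM in sham left kidneys. As a share of the estimated counts, which are not divided by length, they took 5.25% to 7.86%. Mouse 1 of each condition had the highest sum in both of its kidneys, and the ranges of the 4 groups overlapped.

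Members are short transcripts, and TPM divides by length. The deposited lengths of the 83 members tested had a median of 390 bases, against 1847 bases for all tested genes. For 81 of 82 members with a coding transcript in GENCODE vM21, the deposited length was below that of the longest such transcript, by a median of 354.5 bases. The exception was Ndufa11, with a deposited length of 2066 bases against 918 bases annotated. The method behind the deposited lengths is not given in the sources used here, so that levels set between members of different length rest on them. Members also share the genome with neighbours: exons of 24 members overlap those of another coding gene, and whether counting used strand is not given.

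Complex I spanned a wide range of levels. Its mean level over the 10 libraries ran from 33.4 TPM for Ndufs1 to 6468 TPM for Ndufa1, with a median of 1347 TPM over its 36 genes. Ndufa1, an accessory subunit of the membrane arm, was at 7806, 6005 and 4842 TPM in coarctation right kidneys, 7487, 6252.5 and 4984.5 TPM in coarctation left kidneys, 8755 and 4757 TPM in sham right kidneys, and 8631 and 5162 TPM in sham left kidneys. Mouse 1 of each condition was highest, and the groups overlapped. Ndufs1, the largest iron-sulfur subunit of the matrix arm, was at 34.6, 27.1 and 38.2 TPM in coarctation right kidneys, 32.6, 28.2 and 41.6 TPM in coarctation left kidneys, 30.6 and 38.8 TPM in sham right kidneys, and 23.6 and 38.5 TPM in sham left kidneys. Ndufv1, the flavoprotein that takes electrons from NADH, averaged 85.3 TPM and was also far below the median of the complex.

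Complex II had 1 subunit above the others, and complex III was split between small and large subunits. Sdhb, the iron-sulfur subunit of succinate dehydrogenase, averaged 1157 TPM, the membrane anchors Sdhd and Sdhc averaged 303 and 256 TPM, and the flavoprotein Sdha averaged 85.6 TPM. In complex III, the 5 small accessory subunits Uqcr11, Uqcr10, Uqcrb, Uqcrq and Uqcrh averaged 2150 to 7457 TPM. The 4 larger subunits averaged 145 to 185 TPM, namely the core proteins Uqcrc1 and Uqcrc2, cytochrome c1 (Cyc1) and the Rieske iron-sulfur protein (Uqcrfs1).

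In complex IV, Cox6a1 (mean 5459 TPM) and Cox8a (mean 5261 TPM), the ubiquitous isoforms of their subunits, were highest. In complex V, Atp5h and Atp5j, subunits of the peripheral stalk that holds the catalytic head still against the rotor, were highest, with Atp5h averaging 3118 TPM. The catalytic beta subunit Atp5b averaged 974 TPM and the alpha subunit Atp5a1 averaged 184 TPM. Atp5g2, 1 of 3 genes for the same rotor subunit, was lowest with 167 TPM. The order of members was close to fixed across libraries, with Spearman correlations of TPM over the 85 genes between 0.961 and 0.994 in the 45 pairs of libraries. These libraries share the sort and the library kit, and the correlation describes genes, which are not replicates.

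**Figure D1:**
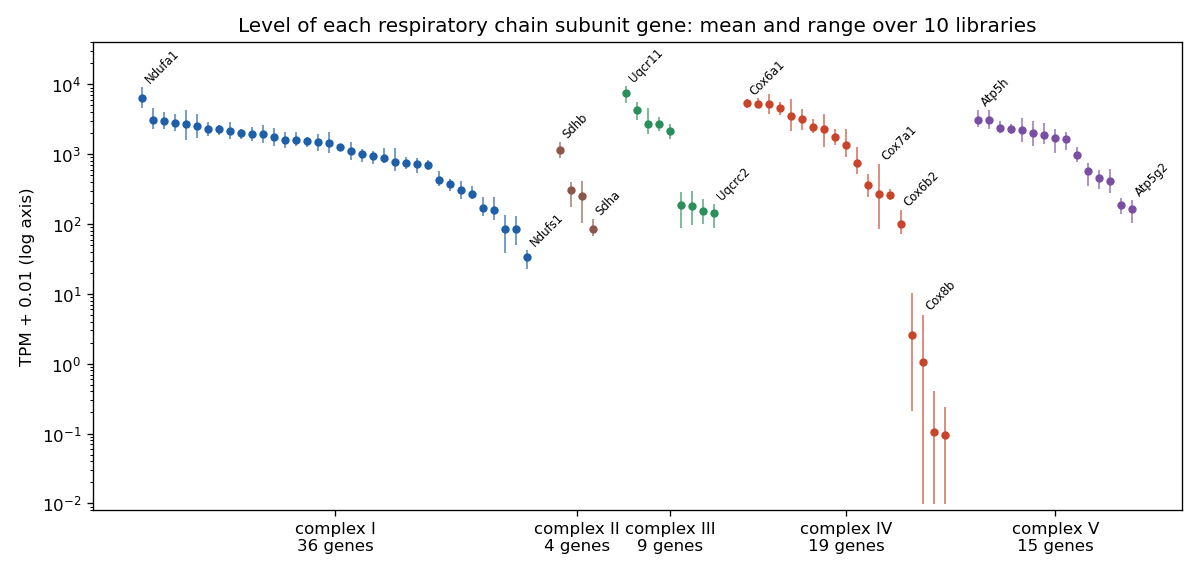
Mean level of each of the 83 members assigned to a complex (points) with the range over the 10 libraries (lines), on a log axis of TPM + 0.01, ordered within complexes I to V. Members of 1 complex differ widely, and the 4 isoforms at the lower right of complex IV stay under 10 TPM.

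The upstream sequences of the most abundant members of complexes II, III, IV and V are shown. Some promoter motifs lay in a larger share of member windows than of all windows, although most member windows lacked each of them. RefSeq windows on GRCm38.p6, 250 bases before to 50 bases after an annotated start, matched 67 of the 85 members (72 windows) and were set beside 32851 windows of all genes. The ETS-type motif CCGGAAG lay in 22.2% of member windows and 8.86% of all windows. The NRF1-type motif GCATGCGC lay in 13.9% of member windows and 2.71% of all windows. AAGATGGC, a YY1-type motif, lay in 12.5% of member windows and 2.75% of all windows, and TATAAA lay in 11.1% of member windows and 13.6% of all windows. Each motif was searched on both strands, and a palindromic NRF1 stretch matches on both at once. These matches describe letters and do not show binding. Member windows also differ in base composition, with a median of 14 CpG in 250 upstream bases against 6 over all windows. The most abundant members of complexes II, III, IV and V each held a match, printed 5′ to 3′ for the 250 bases before the start with the NRF1-type and ETS-type motifs in capitals. Sdhb (chr4:140961021-140961270, plus strand) holds the NRF1-type motif, Uqcr11 (chr10:80406822-80407071, minus strand) and Atp5h (chr11:115419920-115420169, minus strand) hold the ETS-type motif, and Cox6a1 (chr5:115348959-115349208, minus strand) holds both. The percentages cover windows that also hold the 50 bases after the start, not printed here, and in these longer windows Sdhb also has an ETS-type match and Uqcr11 an NRF1-type match. Ndufa1, the most abundant member of complex I, holds none of the 4 motifs in those bases.
Sdhb: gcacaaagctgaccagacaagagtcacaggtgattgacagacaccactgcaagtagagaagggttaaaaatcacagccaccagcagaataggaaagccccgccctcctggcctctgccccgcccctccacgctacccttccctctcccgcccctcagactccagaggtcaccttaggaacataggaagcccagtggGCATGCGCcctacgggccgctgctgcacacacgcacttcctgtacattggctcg
Uqcr11: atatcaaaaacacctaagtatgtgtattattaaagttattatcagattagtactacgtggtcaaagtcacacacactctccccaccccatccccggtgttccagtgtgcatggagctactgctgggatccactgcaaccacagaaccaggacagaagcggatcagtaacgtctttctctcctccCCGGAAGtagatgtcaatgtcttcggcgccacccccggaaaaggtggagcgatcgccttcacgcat
Cox6a1: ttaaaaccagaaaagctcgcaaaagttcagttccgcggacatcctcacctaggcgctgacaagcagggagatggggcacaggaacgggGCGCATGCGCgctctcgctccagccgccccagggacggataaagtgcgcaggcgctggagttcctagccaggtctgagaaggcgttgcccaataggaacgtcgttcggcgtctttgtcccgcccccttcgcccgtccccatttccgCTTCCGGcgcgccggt
Atp5h: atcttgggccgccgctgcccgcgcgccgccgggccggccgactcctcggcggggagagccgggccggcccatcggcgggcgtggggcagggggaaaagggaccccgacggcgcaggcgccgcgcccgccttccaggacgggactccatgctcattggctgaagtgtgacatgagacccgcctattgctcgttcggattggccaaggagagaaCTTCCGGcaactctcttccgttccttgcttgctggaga

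Both isoforms of 1 complex IV subunit are set side by side because the results below turn on them. Cox7a1, found mainly in heart and skeletal muscle, has 4 CpG in the 250 bases before its start (chr7:30183921-30184170, plus strand), and its ubiquitous partner Cox7a2 has 14 (chr9:79759854-79760103, minus strand). CpG are in capitals, and neither window holds any of the 4 motifs.
Cox7a1: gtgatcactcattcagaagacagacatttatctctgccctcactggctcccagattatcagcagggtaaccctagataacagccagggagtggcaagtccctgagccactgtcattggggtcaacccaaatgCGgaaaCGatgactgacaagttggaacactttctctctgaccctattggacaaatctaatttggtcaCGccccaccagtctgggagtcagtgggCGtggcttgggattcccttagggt
Cox7a2: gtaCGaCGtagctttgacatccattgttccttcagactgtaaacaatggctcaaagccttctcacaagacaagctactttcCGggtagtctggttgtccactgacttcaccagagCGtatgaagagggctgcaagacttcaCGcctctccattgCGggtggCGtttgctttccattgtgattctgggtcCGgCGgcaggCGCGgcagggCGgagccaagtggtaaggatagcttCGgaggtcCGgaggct

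Summed by complex, the levels differed more between mice than between groups. Complex I summed to 60821, 51673 and 45820 TPM in coarctation right kidneys, 58553, 50340 and 47138 TPM in coarctation left kidneys, 63101 and 44220 TPM in sham right kidneys, and 61415 and 45995 TPM in sham left kidneys. Complex III summed to between 16776 and 23979 TPM, complex IV to between 30547 and 45012 TPM, and complex V to between 19757 and 28563 TPM, with mouse 1 of each condition highest in every case. Complex II was the exception. It summed to 2078, 2088 and 1933 TPM in coarctation right kidneys, 1755, 1481 and 1898 TPM in coarctation left kidneys, 1643 and 1924 TPM in sham right kidneys, and 1610 and 1608 TPM in sham left kidneys. The right kidneys of coarctation mice lay above all other libraries for complex II, although sham right kidney 2, at 1924 TPM, lay just under the lowest of them.

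**Figure D2:**
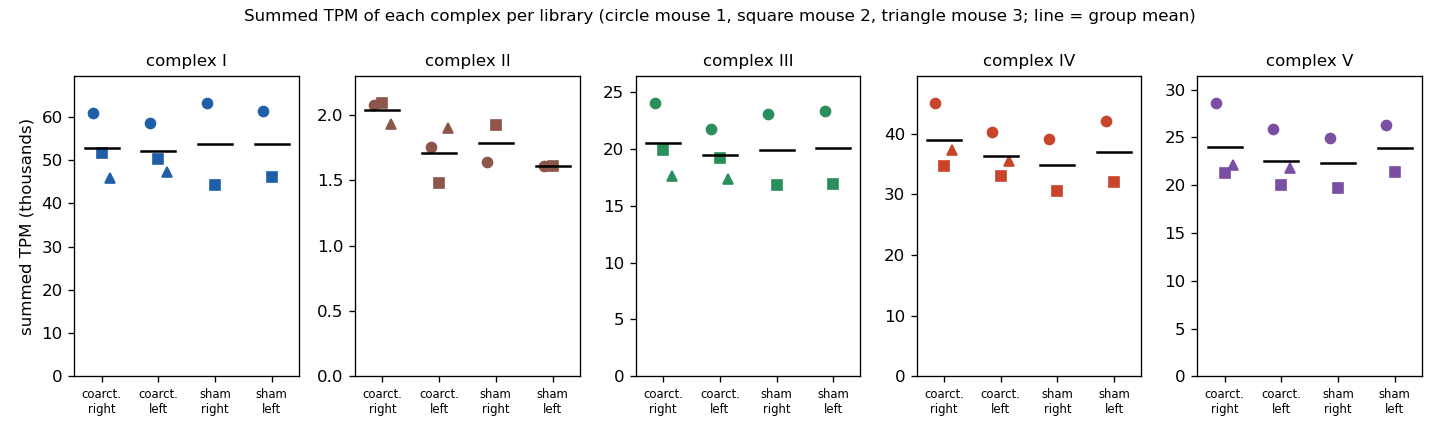
Summed TPM (axis in units of 1000) of the members of each complex in every library, with the mean of each group as a line and the mouse shown by its symbol. Mouse 1 of each condition is highest for complexes I, III, IV and V, and only complex II has its 3 coarctation right kidneys above all other libraries.

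On the log2 CPM scale (library-scaled counts after TMM, a scaling that balances most genes between libraries) members varied less than other genes. The SD over the 10 libraries had a median of 0.32 over the 83 tested members, against 0.81 over all 18825 tested genes and 0.41 over the 3884 abundant genes (log2 CPM averaging 5 or more). Most members lay well above that cutoff, and genes of matched level were not compared. Cox6a1 varied least in complex IV (SD 0.12), and its highest TPM was 1.28 times its lowest. The widest variation among members that abundant was that of Cox7a1 (SD 0.92), whose highest TPM was 8.13 times its lowest.

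The first comparison, right against left kidneys of coarctation mice, asks which subunits differ between the sides of the narrowing. In mice the right renal artery commonly branches off above the left one. After TMM scaling, most members of complex I were slightly lower in right kidneys and a few subunits of complexes II and III were higher. Cox7a1 was the one abundant member that differed by more than 1 log2 unit. None of these differences passed the test. By edgeR's quasi-likelihood test 0 of 83 members had an adjusted p under 0.05, as did 0.0% of all tested genes, and 0 members had an unadjusted p under 0.05, against 4.63% of all tested genes. DESeq2 called 0 members and 0.404% of all tested genes, and limma-voom called 0 members and 0.0% of all. With mouse as a block, which compares the kidneys within each animal, 7 members had an unadjusted p under 0.05 (8.43% of members, 5.93% of all genes) and 0 passed adjustment (0.0266% of all genes did).

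The median log2 change over the 83 members was -0.06, with 33 higher and 50 lower in coarctation right kidneys, against a median of 0.02 over all tested genes and -0.08 over the abundant ones. On the log2(TPM + 1) scale, where libraries are not rescaled by TMM, the direction turned, with a median of 0.08, 60 higher and 23 lower. By complex, the medians on the CPM scale were -0.11 for complex I, 0.10 for complex II, -0.06 for complex III, 0.01 for complex IV and -0.05 for complex V. On log2(TPM + 1) they were 0.03, 0.27, 0.09, 0.13 and 0.09 in the same order, so that complex I was lowest and complex II highest on both scales, while the signs of complexes I, III and V depended on the scale.

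Within mice, 31 members were lower in the right kidney of all 3 coarctation mice (37.3% of members), 19 of them in complex I. Of all tested genes 13.5% were, and of the abundant genes 23.6%. A further 8 members were higher in all 3 mice (9.64%), against 14.5% of all tested genes and 9.55% of the abundant ones. They were Sdhd, Cyc1, Uqcrc1, Uqcrfs1, Cox7a1, Atp5d, Atp5g1 and Atp5sl. On log2(TPM + 1) the counts were 5 lower and 24 higher, against 8.15% and 20.8% of all tested genes.

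In complex III, Uqcrh, the hinge protein that helps cytochrome c1 meet cytochrome c, was at 2468, 1889 and 1858 TPM in coarctation right kidneys and at 2598, 2146 and 2293 TPM in coarctation left kidneys. It was lower in the right kidney of every mouse (log2 change -0.33, SE 0.27, edgeR adjusted p = 1). Larger subunits of the complex lay the other way. Cyc1 was at 114, 276 and 229 TPM in coarctation right kidneys, against 100, 171 and 141 TPM in coarctation left kidneys (log2 change 0.40, SE 0.41, edgeR adjusted p = 1). Uqcrfs1 was at 123, 210 and 202 TPM in coarctation right kidneys, against 108.5, 137 and 118 TPM in coarctation left kidneys (log2 change 0.38, SE 0.37). Uqcrc2, the other core protein, did not share that direction, with a log2 change of -0.22 (SE 0.31).

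In complex II, Sdhd, a membrane anchor, was at 354, 390.5 and 392 TPM in coarctation right kidneys and at 236, 226 and 329 TPM in coarctation left kidneys. The groups did not overlap on TPM, and the log2 change was 0.35 (SE 0.33, edgeR adjusted p = 1). Sdha, Sdhb and Sdhc had log2 changes of 0.04 (SE 0.26), 0.00 (SE 0.27) and 0.16 (SE 0.44).

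The 2 members by name only diverged, and neither belongs to ATP synthase by its RefSeq name. Atp5s had a log2 change of -0.05 (SE 0.39). Atp5sl was at 7.13, 18.6 and 19.1 TPM in coarctation right kidneys and at 4.25, 1.90 and 10.9 TPM in coarctation left kidneys (log2 change 1.14, SE 0.70, edgeR adjusted p = 1). Its change in mouse 2, 3.10 in log2 CPM, was far above those of mice 1 and 3, 0.65 and 0.57.

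Across the 80 members with a log2 CPM averaging 5 or more, the log2 change between kidneys of coarctation mice had a Spearman correlation of 0.31 with deposited length and of -0.19 with mean log2 CPM. Over the 3884 genes of that abundance the values were 0.13 and -0.07. The part of length or level in the changes was not tested.

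**Figure D3:**
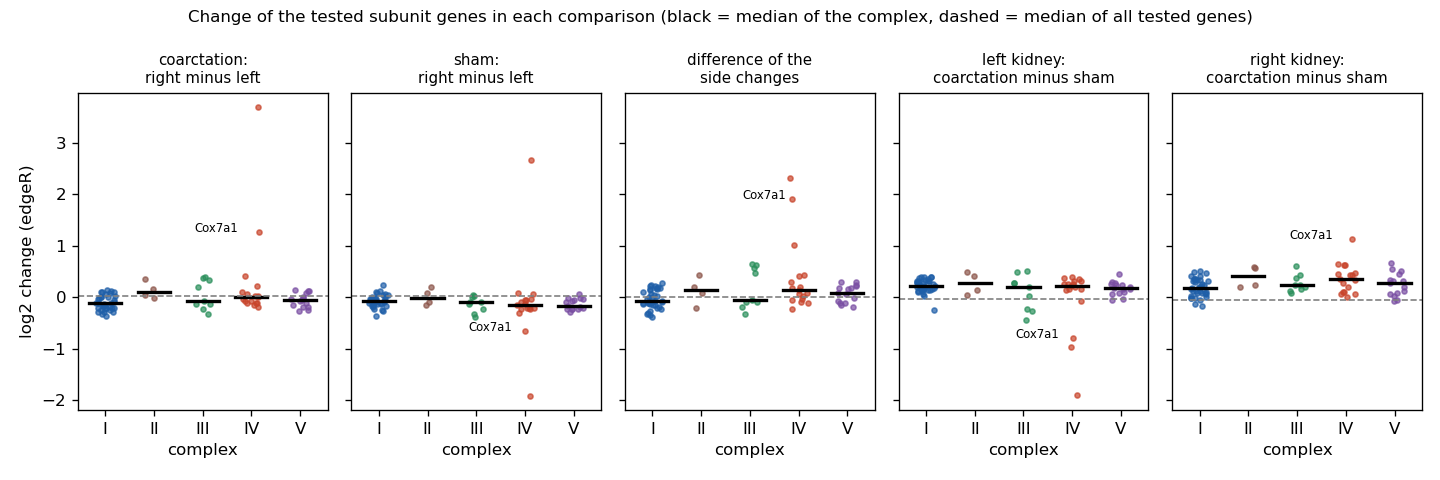
Log2 change of each tested member in the 5 comparisons, by complex, with the median of each complex in black and the median of all tested genes dashed. Most members lie within 0.5 of 0, Cox7a1 stands apart in the comparisons of right with left kidneys, and the most extreme points of complex IV are Cox8b and Cox6a2, which stay under 10 TPM.

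In sham mice the same contrast shows how far right and left kidneys differ without narrowing. The median of every complex lay below 0, on both scales, and no member passed the test. Of the 83 members 0 had an adjusted p under 0.05 by edgeR (0.0% of all tested genes) and 0 had an unadjusted p under 0.05 (1.94% of all tested genes). DESeq2 called 0 members and 0.149% of all tested genes, and limma-voom called 0 members and 0.0% of all. With mouse as a block 1 member had an unadjusted p under 0.05, Ndufc2 (1.2% of members, 3.01% of all genes). The median log2 change was -0.08, with 19 higher and 64 lower, against 0.02 over all tested genes, and -0.06 on log2(TPM + 1). In both mice 42 members were lower in the right kidney (50.6%, against 24.3% of all tested genes and 24.4% of the abundant ones) and 10 were higher (12.0%, against 24.5% and 25.3%). With log2(TPM + 1) in its place 34 were lower (41.0%, against 22.3% of all tested genes) and 14 were higher (16.9%, against 26.9%).

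The mice contributed unequally. The median right minus left change of the members was -0.17 in sham mouse 1 and -0.04 in sham mouse 2, and -0.01, -0.05 and -0.22 in coarctation mice 1, 2 and 3. Complex II differed most between mice, with a median of -0.44 in sham mouse 1 and 0.26 in sham mouse 2. The 2 conditions thus overlapped, with coarctation mouse 3 lowest and coarctation mouse 1 highest.

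Ndufc2, an accessory subunit of the membrane arm of complex I, was at 739 and 827 TPM in sham right kidneys and at 1012 and 968.5 TPM in sham left kidneys (log2 change -0.37, SE 0.30, edgeR adjusted p = 1). Uqcrb, the ubiquinone-binding subunit of complex III, was at 2691 and 2036 TPM in sham right kidneys and at 3080 and 2865 TPM in sham left kidneys (log2 change -0.38, SE 0.41). Neither gene had overlapping groups, but with 2 mice the spread within sham kidneys is poorly known. Atp5f1, the b subunit of the peripheral stalk of ATP synthase, was at 323 and 381 TPM in sham right kidneys and at 395 and 448 TPM in sham left kidneys (log2 change -0.29, SE 0.34).

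**Figure D4:**
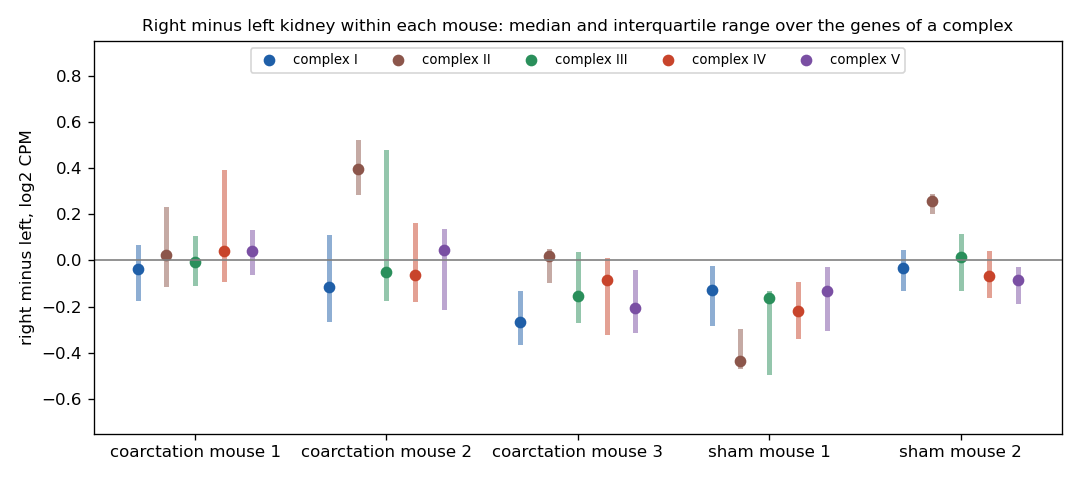
Right minus left change in log2 CPM within each mouse, as the median (points) and interquartile range (bars) over the tested members of complexes I to V. On this scale complex I lies below 0 in all 5 mice, although its summed TPM was higher in the right kidney of coarctation mice 1 and 2. Complex II runs from -0.44 in sham mouse 1 to 0.40 in coarctation mouse 2.

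The difference between the side changes, coarctation minus sham, asks whether the side difference itself depends on the operation. It was near 0 for most members and, among the abundant ones, largest for Cox7a1. Of the 83 members 0 had an adjusted p under 0.05 by edgeR (0.0% of all tested genes) and 0 had an unadjusted p under 0.05 (3.05% of all tested genes). DESeq2 called 0 members and 0.181% of all tested genes, and limma-voom called 0 members and 0.0% of all. With mouse as a block, 4 members had an unadjusted p under 0.05, which were Cox7a1, Cyc1, Uqcrc1 and Atp5sl (4.82% of members, 4.15% of all genes). The median was 0.02, equal to that of all tested genes and above that of the abundant ones (-0.10), and 0.15 on log2(TPM + 1), with 44 of 83 members above 0 on the CPM scale and 60 on the TPM scale. The within-mouse changes of coarctation mice lay wholly above those of sham mice for 9 members (10.8%, against 10.3% of all tested genes and 6.39% of the abundant ones) and wholly below for 11 (13.3%, against 10.1% and 16.5%). These shares are close to those of genes in general. The counts on log2(TPM + 1) were 25 above (30.1%, against 12.6% of all tested genes) and 4 below (4.82%, against 8.4%). On the CPM scale 7 of the 83 members were higher in the right kidney of every coarctation mouse and lower in that of every sham mouse. So were 3.21% of all tested genes. The reverse held for 6 of the 83 members and for 3.24% of all tested genes. The 7 were Cox7a1, Cyc1, Uqcrc1, Uqcrfs1, Atp5d, Atp5g1 and Atp5sl, and the 6 were Ndufa7, Ndufb7, Ndufs1, Ndufv3, Uqcrq and Cox7c.

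Uqcrc1, a core protein of complex III, was among those above. It was at 157, 278 and 207 TPM in coarctation right kidneys and 124, 150.5 and 173 TPM in coarctation left kidneys, and at 90.9 and 250.5 TPM in sham right kidneys and 149 and 274 TPM in sham left kidneys. The right kidney was higher in each coarctation mouse and lower in each sham mouse (difference 0.65, SE 0.63, edgeR adjusted p = 1.00). Mouse 1 of each condition was low in both kidneys. Uqcrb also lay above (difference 0.58, SE 0.53), but its change in coarctation mice was 0.60, -0.03 and -0.26.

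In left kidneys, coarctation against sham compares cells of the side below the narrowing, if the arteries lie in the common order, with cells from mice whose aorta was not narrowed. Members were slightly higher in coarctation mice after TMM scaling and slightly lower on TPM. By edgeR 0 of 83 members had an adjusted p under 0.05 (0.0% of all tested genes) and 0 had an unadjusted p under 0.05 (4.75% of all tested genes). DESeq2 called 0 members and 0.207% of all tested genes, and limma-voom called 0 members and 0.0% of all. The median log2 change was 0.21, with 72 higher and 11 lower, against -0.02 over all tested genes but 0.23 over the abundant genes. On log2(TPM + 1) the direction turned, with a median of -0.05, 27 higher and 56 lower, and the abundant genes had a median of 0.00. The groups did not overlap for 9 members higher in coarctation left kidneys (10.8%, against 9.73% of all tested genes and 18.8% of the abundant ones) and for 1 member lower, Cox6a2 (1.2%, against 12.0% and 2.73%). After log2(TPM + 1) the groups did not overlap for 0 members higher (0.0%, against 4.87% of all tested genes) and 5 lower (6.02%, against 17.2%). Cox7a1 was lower on both scales, with a log2 change of -0.78 (SE 0.64, edgeR adjusted p = 0.914). Proximal tubule markers were higher in coarctation left kidneys for 9 of 10 genes (median log2 change 0.52, but -0.04 on log2(TPM + 1)), and intercalated cell markers were lower for 6 of 6 (median -1.41), with 0 past the edgeR test. The part of these cells in the members' changes was not tested.

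Uqcrc2, the second core protein of complex III, was at 154, 138 and 186 TPM in coarctation left kidneys and at 128 and 139 TPM in sham left kidneys (log2 change 0.52, SE 0.35, edgeR adjusted p = 0.912). Uqcrh was at 2598, 2146 and 2293 TPM in coarctation left kidneys and at 2355 and 1714 TPM in sham left kidneys (log2 change 0.49, SE 0.31). On TPM the groups overlapped for both genes, and only after TMM scaling did they separate. Ndufa11 and Ndufa2, accessory subunits of complex I, each had a log2 change of 0.39 (SE 0.28, edgeR adjusted p = 0.912).

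In right kidneys, most members were higher in coarctation than in sham mice, more evenly so after TMM scaling than on TPM. By edgeR 0 of 83 members had an adjusted p under 0.05 (0.0% of all tested genes) and 0 had an unadjusted p under 0.05 (3.82% of all tested genes). DESeq2 called 0 members and 0.303% of all tested genes, and limma-voom called 0 members and 0.0% of all. The median log2 change was 0.24, with 75 higher and 8 lower, against -0.05 over all tested genes and 0.14 over the abundant ones. On log2(TPM + 1) the median was 0.09, with 54 higher and 29 lower. All 17 tested members of complex IV and all 9 of complex III were higher on the CPM scale, and 13 of 17 and 6 of 9 were on the TPM scale. The groups did not overlap for 11 members higher in coarctation right kidneys (13.3%, against 7.2% of all tested genes and 10.8% of the abundant ones) and for 0 members lower (0.0%, against 9.18% and 3.27%). From log2(TPM + 1) values they did not overlap for 9 members higher (10.8%, against 5.41%) and for 0 lower (0.0%, against 11.0%). No marker of another cell type passed the edgeR test. Leukocyte markers were higher in coarctation right kidneys for 8 of 8 genes (median log2 change 1.61), intercalated cell markers for 5 of 6 (median 1.92) and proximal tubule markers for 8 of 10 (median 0.53), while podocyte markers were lower for 5 of 6 (median -2.08). The part of these cells in the members' changes was not tested.

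Atp5f1 was at 577, 508 and 436 TPM in coarctation right kidneys and at 323 and 381 TPM in sham right kidneys (log2 change 0.67, SE 0.31, edgeR adjusted p = 0.995). The groups did not overlap, and the same held for Ndufc2, at 988, 954 and 1074 TPM in coarctation right kidneys and at 739 and 827 TPM in sham right kidneys (log2 change 0.50, SE 0.28). Ndufa9, an accessory subunit near the quinone site of complex I, was at 322, 342 and 260 TPM in coarctation right kidneys and at 232 and 255 TPM in sham right kidneys (log2 change 0.47, SE 0.28). Cox5a, a regulatory subunit of complex IV, was at 2210, 1239 and 1312 TPM in coarctation right kidneys and at 1229 and 1117 TPM in sham right kidneys (log2 change 0.62, SE 0.39). For Cox5a, coarctation mouse 1 lay far above the other 2 coarctation mice. Both coarctation against sham comparisons use other mice on each side, while the comparisons of right with left kidneys share libraries with them, so the results are not independent of each other.

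Among the isoforms of complex IV, Cox7a1 alone gave a clear pattern by kidney, and it did not pass the test. Cox7a1 was at 707, 210 and 282 TPM in coarctation right kidneys and at 270.5, 87.0 and 97.5 TPM in coarctation left kidneys, and at 247 and 180 TPM in sham right kidneys and 429 and 228 TPM in sham left kidneys. It was higher in the right kidney of each coarctation mouse and lower in the right kidney of each sham mouse, while the ranges of coarctation right and left kidneys overlapped because mouse 1 was high in both. The log2 change in coarctation mice was 1.27 (SE 0.59, edgeR unadjusted p = 0.0501, adjusted p = 1), with within-mouse changes of 1.29, 1.11 and 1.30. With mouse as a block it was 1.24 (SE 0.22, edgeR adjusted p = 0.233). In sham mice the log2 change was -0.65 (SE 0.71, edgeR adjusted p = 1), and the difference between the side changes was 1.92 (SE 0.92, edgeR adjusted p = 1.00, and 0.599 with mouse as a block). Against sham mice, its log2 change was 1.14 in coarctation right kidneys (SE 0.67, edgeR adjusted p = 0.995).

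Its partner Cox7a2 did not share the pattern. Cox7a2 was at 4352, 2841 and 2783 TPM in coarctation right kidneys and at 3674, 2663 and 3189 TPM in coarctation left kidneys (log2 change -0.08, SE 0.32, edgeR adjusted p = 1). Cox7a1 therefore made up 14.0%, 6.88% and 9.21% of the summed TPM of both genes in coarctation right kidneys and 6.86%, 3.16% and 2.97% in coarctation left kidneys. In sham mice it made up 6.21% and 7.33% in right kidneys and 9.82% and 8.23% in left kidneys. The share was higher in the right kidney by 3.72 to 7.12 percentage points in the 3 coarctation mice and lower by 0.90 and 3.62 points in the 2 sham mice. Treating kidneys as unpaired, the exact two-sided permutation test gave p = 0.1 for coarctation right against left, the smallest p that 3 against 3 allows, and an adjusted p of 1 over the 12 tests of isoform shares.

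Markers of intercalated cells, acid-secreting cells of the collecting duct, were also higher in the right kidneys of coarctation mice. Their 6 genes summed to 727, 85.3 and 126 TPM in coarctation right kidneys and to 73.1, 27.8 and 10.4 TPM in coarctation left kidneys, and to 122 and 73.9 TPM in sham right kidneys and 100 and 146 TPM in sham left kidneys. All 6 were higher in coarctation right kidneys (median log2 change 2.81), with within-mouse medians of 2.96, 1.32 and 3.40 log2 CPM. In sham right kidneys 5 of 6 were lower (median -0.63), with none past the edgeR test and within-mouse medians of 0.16 and -0.87. Leukocyte markers were higher in coarctation right kidneys for 7 of 8 genes (median 0.70), with sums of 1111, 443 and 331 TPM there and of 108, 501 and 74.5 TPM in coarctation left kidneys. Markers of the loop, distal tubule and collecting duct (8 genes) summed to 331, 112 and 108 TPM in coarctation right kidneys. In coarctation left kidneys the sums were 214, 67.0 and 85.1 TPM. Sham right kidneys had 190 and 48.4 TPM, and sham left kidneys 347 and 100 TPM. This sum thus had the direction of Cox7a1 in each mouse, although the marker Calb1 averaged 44.1 TPM in sham right and 15.1 TPM in sham left kidneys. Slc12a1 of the same list averaged 2.19 TPM in coarctation right and 4.46 TPM in coarctation left kidneys. The summed TPM of endothelial markers also had that direction in each mouse, although Pecam1 averaged 0.89 TPM in coarctation right and 1.45 TPM in coarctation left kidneys. Podocyte markers, and renin and mural cell genes, had lower sums in the right kidney of each coarctation mouse. The part of these cell types in the Cox7a1 result was not tested.

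Cox4i2, an isoform of subunit 4 known from lung and from cells that sense oxygen, was present in every library. It was at 255, 464 and 377 TPM in coarctation right kidneys, 249, 375 and 334.5 TPM in coarctation left kidneys, 253 and 509 TPM in sham right kidneys, and 281 and 502 TPM in sham left kidneys. It made up 4.38% to 11.8% of the summed TPM of Cox4i1 and Cox4i2, with the lowest shares in mouse 1 of each condition. The share was higher in the right kidney of all 3 coarctation mice, by 0.23 to 1.32 percentage points, and in 1 of 2 sham mice. The exact permutation test gave p = 0.7 for coarctation right against left and p = 0.6 and 0.8 for coarctation against sham in left and right kidneys. Ndufa4l2, a paralog of Ndufa4 that is no member, had a like spread between mice, at 223, 634 and 610 TPM in coarctation right kidneys, 279, 533 and 430 TPM in coarctation left kidneys, 331 and 813 TPM in sham right kidneys, and 339 and 772 TPM in sham left kidneys.

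**Figure D5:**
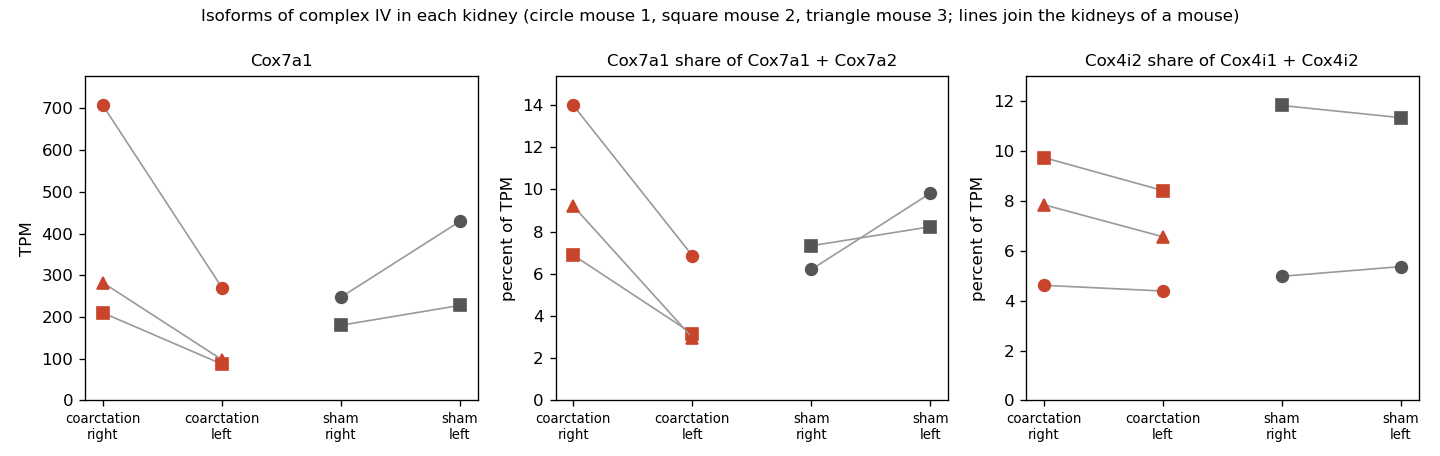
Cox7a1 in TPM, its share of Cox7a1 and Cox7a2, and the share of Cox4i2 in Cox4i1 and Cox4i2, in every kidney, with lines joining the right and left kidneys of a mouse. The lines for Cox7a1 slope down to the left kidney in the 3 coarctation mice and up to it in the 2 sham mice, and Cox4i2 shares separate by mouse.

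The remaining isoforms were low or steady. Cox6b2, an isoform best known from testis, made up 2.67% to 5.48% of Cox6b1 and Cox6b2. Cox6a2 and Cox8b, the muscle isoforms of their subunits, stayed at or below 9.89 and 4.88 TPM, so that their large log2 changes rest on very few counts. The supercomplex factor Cox7a2l was at 225 to 306 TPM over all libraries. Of the 3 genes for the c subunit of the ATP synthase rotor, which differ in their targeting sequences, Atp5g1 made up 44.6% to 60.8%, Atp5g3 33.6% to 52.0% and Atp5g2 2.06% to 6.76% of their sum. The shares of Atp5g1 were 60.8%, 59.3% and 48.6% in coarctation right kidneys, 59.4%, 54.6% and 44.6% in coarctation left kidneys, 60.6% and 46.6% in sham right kidneys, and 60.5% and 45.2% in sham left kidneys. Here too mice differed more than kidneys.

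The mitochondrially encoded subunits, which join the nuclear ones in complexes I, III, IV and V, summed to 0.31 to 0.54 of the members' TPM. The ratio was 0.53, 0.42 and 0.50 in coarctation right kidneys, 0.54, 0.35 and 0.52 in coarctation left kidneys, 0.40 and 0.31 in sham right kidneys, and 0.50 and 0.40 in sham left kidneys. Sham right kidneys had a lower ratio than sham left kidneys in both mice, and all 13 genes were lower there (median log2 change -0.38), with 0 past the edgeR test. In right kidneys all 13 were higher in coarctation than in sham mice (median 0.75, and 0.56 on log2(TPM + 1)), against a median of 0.24 for the nuclear members, and 0 passed. These values are uncertain, because Gm29216, a nuclear pseudogene similar to mitochondrial genes, was itself at 19294 to 47157 TPM and how reads were divided between such copies is not given.

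Genes that build or feed the chain showed no called member either. Of 14 complex I assembly factors, 6 were higher and 8 lower in coarctation right against left kidneys (median 0.00), 12 were higher in coarctation than in sham left kidneys (median 0.33) and 12 in right kidneys (median 0.34), with 0 passing the edgeR test in each. On log2(TPM + 1) the medians were 0.14, 0.05 and 0.16. Of 32 assembly factors of complexes II to V, 14 were higher and 18 lower in coarctation right against left kidneys (median -0.06, but 0.08 on log2(TPM + 1)), and 0 passed. Of 16 citric acid cycle genes, whose enzymes supply NADH and succinate, 12 were higher and 4 lower in coarctation right against left kidneys (median 0.11, and 0.24 on log2(TPM + 1)), and 0 passed. Of 15 regulators of mitochondrial genes, 5 were higher and 10 lower (median -0.15, but 0.04 on log2(TPM + 1)), and 0 passed.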

How the data were processed

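RNA-seq of 10 libraries was analysed as deposited. Per the file headers, the abundance columns are TPM and the length columns are mean transcript lengths in bases, a signal the authors deposited per gene and library without normalization. Per the same headers, the estimated counts were made by the authors by scaling TPM with length and with library size. FastQC and GRCm38 (mm10) are named in the submitters' processing notes. Neither the aligner nor the quantifier is given in the sources used here. Estimated counts were rounded, filtered with filterByExpr in edgeR 4.0.16 (R 4.3.3), which kept 18825 genes, and scaled by TMM. A quasi-likelihood fit with a mean for each of 4 groups (6 residual degrees of freedom) gave 5 contrasts, with Benjamini-Hochberg adjustment over all tested genes and a threshold of 0.05. The SE given with an edgeR log2 change is the absolute change divided by the square root of the test's F statistic. DESeq2 1.42.0, limma 3.58.1 and a fit with mouse as a block (3 residual degrees of freedom) were alternatives. Replicate numbers pair kidneys because the labels name the mouse. Deviations of a mouse's kidneys from their group means correlated at 0.127, 0.0496 and 0.0307 in coarctation mice and at 0.398 in sham mice. With 2 libraries per sham group the deviations of the mice mirror each other, so the sham mice give a single value. Within-mouse changes used log2 CPM with a prior count of 2, and TPM was tested as log2(TPM + 1) with limma. Reads carry no molecular identifiers, and counting error is covered only through the spread between libraries.

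The members, gene lists and tests were chosen with earlier results of these data known. Named in each comparison were the 4 members of smallest p that averaged a log2 CPM of 2 or more and either moved one way in each mouse or had groups without overlap. Also named were the highest and lowest members of each complex, isoform families and complex II. One gene that the rule names is not reported here. Other members named were chosen after their values were seen, as was the use of abundant genes and of log2(TPM + 1) for counts of direction. Positions come from GENCODE vM21 by symbol for 84 members, and promoter windows from RefSeq. The NRF1-type motif is a shortened core, taken up after a longer form had been searched in the same windows. The test was checked on simulated data with independent libraries and with changes larger than those of most members. That check does not cover changes of the size seen in most members.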

Additional observations from a re-analysis of the deposited data

Results flagged for a closer look

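On the CPM scale, every coarctation mouse moved one way between kidneys and every sham mouse the other for 13 members. On TPM this did not hold for Atp5d, Ndufs1, Ndufa7, Ndufb7, Uqcrq and Cox7c. Ndufa7, for example, was at 3554 TPM in the right and 3339 TPM in the left kidney of coarctation mouse 1. The 7 of 83 tested members higher in right kidneys of coarctation mice compare with 3.21% of all tested genes, and the 6 of 83 lower there with 3.24%. The share of the abundant genes was not taken for this pattern. The test of the difference between side changes passed for 0 of the 13 members (edgeR, adjusted over all genes). Values below are right minus left in log2 CPM.

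Cox7a1 was at 1.29, 1.11 and 1.30 in coarctation mice 1, 2 and 3 and at -0.88 and -0.33 in sham mice 1 and 2. Atp5sl was at 0.65, 3.10 and 0.57 in coarctation mice and at -0.83 and -0.54 in sham mice. The other 11 genes spanned a narrower range. In complex III, Uqcrc1 was at 0.25, 0.73 and 0.03 in coarctation mice and at -0.80 and -0.12 in sham mice. Cyc1 was at 0.10, 0.54 and 0.46 in coarctation mice and at -0.48 and -0.12 in sham mice. Uqcrfs1 was at 0.09, 0.47 and 0.54 in coarctation mice and at -0.14 and -0.07 in sham mice. Uqcrc1 encodes a core subunit of that complex, and Cyc1 and Uqcrfs1 encode its cytochrome c1 and Rieske iron-sulfur subunits. In ATP synthase, Atp5d was at 0.08, 0.12 and 0.18 in coarctation mice and at -0.04 and -0.03 in sham mice. Atp5g1 was at 0.08, 0.29 and 0.05 in coarctation mice and at -0.26 and -0.11 in sham mice.

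The reverse pattern held for 6 members. Ndufs1 was at -0.01, -0.21 and -0.35 in coarctation mice and at 0.29 and 0.02 in sham mice. Ndufa7 was at -0.00, -0.12 and -0.23 in coarctation mice and at 0.32 and 0.13 in sham mice. Ndufb7 was at -0.22, -0.14 and -0.36 in coarctation mice and at 0.13 and 0.03 in sham mice. These encode complex I subunits, as does the next. Ndufv3 was at -0.14, -0.30 and -0.42 in coarctation mice and at 0.15 and 0.04 in sham mice. Outside complex I, Uqcrq was at -0.10, -0.20 and -0.10 in coarctation mice and at 0.01 and 0.11 in sham mice. Cox7c was at -0.08, -0.06 and -0.31 in coarctation mice and at 0.11 and 0.03 in sham mice. Several of these values lie close to 0. Groups of 3 and 2 are too small for a test of single outlying libraries.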

How the results depend on the processing

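In 128 alternative fits, with each setting counted once per comparison (DESeq2, limma-voom, RLE scaling, no filter, the replicate block and each library or mouse left out among them), 0 members were called. Over all tested genes these fits called at most 112 in coarctation right against left, 28 in sham right against left, 63 for the difference of side changes, 67 in left kidneys and 70 in right kidneys. On log2(TPM + 1) the members' median was 0.08 for coarctation right against left, 0.15 for the difference of side changes and -0.05 for left kidneys, against -0.06, 0.02 and 0.21 in the model. Without both kidneys of coarctation mouse 2 the first 2 were 0.06 and 0.13, and with the replicate block and without that mouse the second was 0.14. Without sham mouse 2 the sham median was -0.18, with or without the replicate block, against -0.08. With 1 library left out, medians ran from -0.18 (without the right kidney of coarctation mouse 1) to 0.19 (without its left kidney) for coarctation right against left, from -0.05 to 0.25 for the difference, from -0.16 to -0.06 in sham mice, from 0.01 to 0.32 in left kidneys and from 0.09 to 0.37 in right kidneys. The replicate block changed no call, with medians of -0.08, -0.10 and 0.04 for coarctation, sham and their difference. The log2 change of Cox7a1 in coarctation mice was 0.52 without the right and 2.20 without the left kidney of mouse 1, and lay between 1.22 and 1.44 without both kidneys of any 1 mouse. The cause of these shifts was not tested. Where 1 sham library is left out, the lone library of its group is assumed to vary like the other groups. Of 650 alternative values for medians of single complexes, 85 moved by more than the spread used to judge them.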

Other observations

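Among 12 carriers, inhibitors and alternative subunits, genes that serve the chain without being its standard subunits, 0 passed the edgeR test. With mouse as a block, 4 of the 12 had an unadjusted p under 0.05 between coarctation kidneys, against 5.93% of all tested genes, and 0 of the 12 passed adjustment. Slc25a4, the ADP/ATP carrier prominent in heart and muscle, was at 161, 406 and 353 TPM in coarctation right kidneys, 162, 248 and 235 TPM in coarctation left kidneys, 155 and 456 TPM in sham right kidneys, and 187 and 419 TPM in sham left kidneys. Mouse 1 of each condition was lowest. Cycs, somatic cytochrome c, had its highest values in those same mice, at 821, 450 and 414 TPM in coarctation right kidneys, 430, 266 and 406 TPM in coarctation left kidneys, 531 and 294 TPM in sham right kidneys, and 533 and 303 TPM in sham left kidneys. Atpif1, an inhibitor of ATP synthase running in reverse, was more abundant than any subunit of complex V on average, at 3788 to 6704 TPM. These genes were chosen after their values were seen.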
